A study of Caenorhabditis elegans with 12 samples.

Results

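The genes described are the histone genes of Caenorhabditis elegans whose WormBase name is his- followed by a number. They were found by that name alone, and 72 of the 46726 gene IDs in the counts table carried it. Poly(A)-selected RNA of whole adult worms was sequenced from mir-71 mutants and from N2, the laboratory wild type, at day 5 and at day 0 of adulthood. The 12 libraries formed 4 groups of 3: mutants at day 5, mutants at day 0, N2 at day 5 and N2 at day 0. The mutants carried the allele n4115 of the microRNA gene mir-71 (strain MT12993), and no other group difference in genotype is given in the labels. All groups were grown at 20 °C and moved, soon after the molt into adulthood, to plates with 0.1 mg/mL 5-fluorodeoxyuridine, a drug that blocks DNA synthesis. Age and time on the drug therefore rose together and cannot be told apart, and the day 0 worms had been on the drug for less time than the day 5 worms.

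Histones are the proteins that DNA is wound around, H2A, H2B, H3 and H4 in the nucleosome core and H1 as the linker between cores. Most core histone genes are short, have no intron, lie in clusters and are read during S phase. Their mRNAs typically end in a stem-loop in place of a poly(A) tail, so poly(A) selection captures only part of them. A smaller group of replication-independent genes, such as those for the H3 variant H3.3, often has introns and ordinary poly(A) tails. These genes can also be used outside S phase. Whole-worm RNA does not show which tissue their transcripts came from. The values below are therefore levels of histone RNA that passed poly(A) selection, not of all histone RNA. Members of a histone class also share nearly all of their coding sequence, so the split of reads between near-identical copies is uncertain.

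The 12 libraries held 20498966 to 65187052 counts, and the histone genes took 0.0505% to 0.0763% of them. Below, levels are CPM (read counts scaled to the library's size after TMM scaling), log2 fold changes are given ± SE from edgeR's quasi-likelihood fit, and a gene is called changed when its p, adjusted by Benjamini-Hochberg over all 16764 tested genes of a comparison, is under 0.05. The labels do not say whether replicates came from separate cultures, so p-values measure the spread between these samples, which may be technical. The mir-71 gene itself had 0 counts in every library. A poly(A) library does not measure the mature microRNA, so that value checks no label. A count of 3 amounted to 0.045 to 0.157 CPM, which is the floor below which a level cannot be told from 0 in a library.

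Of the 72 histone genes, 39 had enough counts to be tested. Another 5 (his-17, his-18, his-39, his-42 and his-55) had 1 to 22 counts over all libraries and fell below the filter. The remaining 28 had 0 counts in every library. All 28 lay among the 36 IDs that share a symbol with another ID in the names table, where 14 symbols stand for several gene copies. None of the 36 IDs with a symbol of their own was at 0. The 28 lay on chromosome II (9 genes), chromosome IV (7) and chromosome V (12), and included all 6 genes of the chromosome V cluster his-49 to his-54. A count of 0 there says that no read was assigned to the copy, not that the copy was silent (the authors' treatment of reads that match several copies: not given in the sources used here). Of the 39 tested genes, his-11, his-25, his-45, his-47, his-57, his-65 and his-66 share their symbol with another ID.

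By class, 9 of 17 H2A genes, 7 of 16 H2B genes, 13 of 20 H3 genes and 8 of 16 H4 genes were tested, together with the only H1 gene under a his- name, his-24. Class was read from the coding length and, for his-24 and the H3 variant his-69, from textbook knowledge. The 2 genes his-39 and his-73 matched no class length. The annotation splits the family sharply. It gives 8 genes (his-24, his-35, his-37, his-41, his-57, his-71, his-72 and his-74) more than 1 exon and a 3′ untranslated region, and 64 genes a single exon with no untranslated region. All 8 genes with introns were tested, against 31 of the 64 single-exon genes.

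The 8 genes with introns held 84.3% to 94.7% of the histone counts in each library. All 28 genes at 0 in every library have a single exon. Reads of such copies that were not assigned would be missing from the single-exon share, so these percentages describe assigned reads only. Per kilobase of exon, the mean level over all libraries was highest for the H3.3 genes his-72 (292 CPM per kb) and his-74 (229 CPM per kb). The H2A gene his-35 followed at 201 CPM per kb, the H4 gene his-37 at 158 CPM per kb and the H2B gene his-41 at 75.6 CPM per kb. In each core class the gene with the highest level from assigned reads was thus a gene with introns. The highest level of a single-exon gene was that of his-68 (H2A), at 48.2 CPM per kb, followed by his-60 (H4) at 16.3, his-62 (H2B) at 10.6 and his-59 (H3) at 9.80 CPM per kb. The lowest tested levels were near 0.5 CPM per kb, 0.451 for his-65 and 0.471 for his-7, both H2A genes. The annotated exons of the single-exon genes are coding sequence only, so the length used for them is shorter than that of any transcript that ends further downstream.

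**Figure D1:**
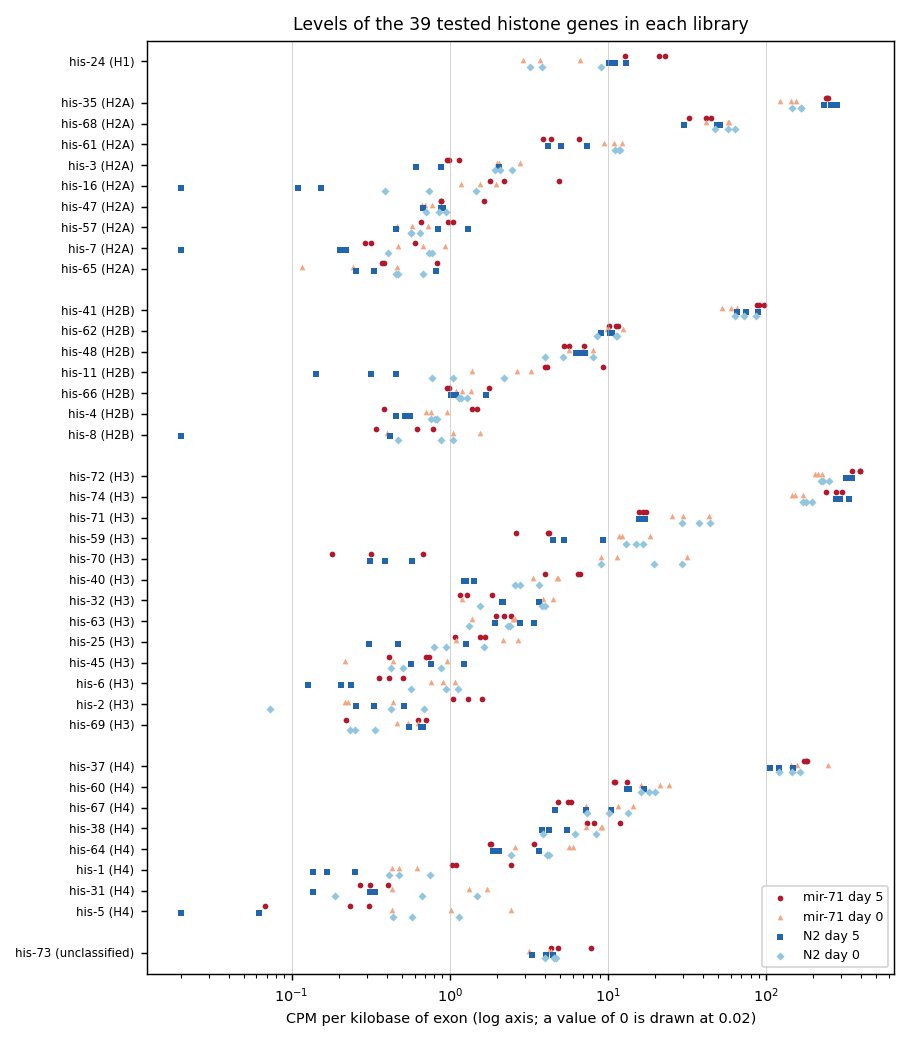
Level of each tested histone gene in CPM per kilobase of exon (log axis), by class, with 1 point per library and the 4 groups as symbols. The genes with introns his-72, his-74, his-35, his-37 and his-41 sit above 50 CPM per kb in every library, and most single-exon genes sit below 10.

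The 72 genes formed 18 genomic groups when members less than 20000 bases apart were joined (WBcel235 coordinates). The genes his-35 (chromosome V, 9544659 to 9545288), his-41 (9545536 to 9546264) and his-37 (9547105 to 9547607) stand side by side, and this trio summed to 158 to 247 CPM per library. The 13 genes of the chromosome II cluster (13817760 to 13828697) summed to 0.382 to 6.01 CPM, with 9 of them at 0 in every library. The 8 genes his-17 to his-22, his-27 and his-28 on chromosome V (8889488 to 8898539) summed to at most 0.103 CPM, with 6 of them at 0. A 0 there says only that no read was assigned, so these sums may miss reads of near-identical copies. His-72 (chromosome III, 12367475 to 12369050), his-74 (chromosome V, 12659704 to 12660330), his-71 (chromosome X, 7981382 to 7982070) and his-24 (chromosome X, 14490094 to 14491119) stand alone.

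The question of the age comparison is which histone transcripts differ between day 5 and day 0. The summed level of the genes with introns was higher at day 5 in both genotypes, and that of the single-exon genes was lower. These sums carry no test, and most of each rests on a few genes. The genes with introns summed to 676 ± 30.1 CPM at day 5 and 431 ± 25.8 CPM at day 0 in mir-71 mutants (SD, n = 3 each). In N2 they summed to 633 ± 13 CPM at day 5 and 463 ± 15.1 CPM at day 0 (SD, n = 3 each). The single-exon genes summed to 47 ± 4.62 CPM at day 5 and 69.6 ± 6.15 CPM at day 0 in mutants, and to 43.5 ± 8.57 CPM at day 5 and 67.5 ± 2.68 CPM at day 0 in N2 (SD, n = 3 each). In neither genotype did the libraries of the 2 ages overlap in either sum. Without his-70, described below, the single-exon sum was 42.1 to 51.5 CPM at day 5 and 50.6 to 71.1 CPM at day 0 in mutants, which overlapped, and 34.5 to 51.6 CPM at day 5 and 52.8 to 66.3 CPM at day 0 in N2.

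**Figure D2:**
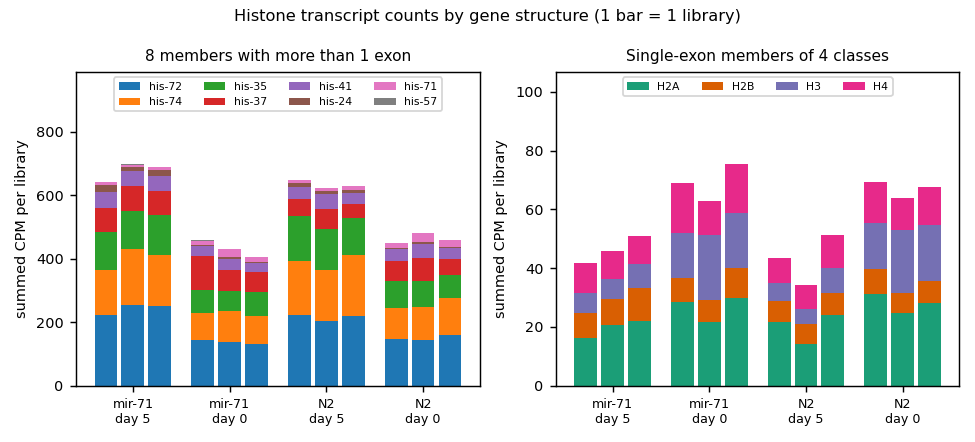
Summed CPM of the 8 histone genes with more than 1 exon (left, by gene) and of the single-exon histone genes of the 4 core classes (right, by class), with 1 bar per library. Every day 5 bar on the left (623 to 697 CPM) stands above every day 0 bar (406 to 480 CPM), and every day 5 bar on the right stands below every day 0 bar.

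In mir-71 mutants, 8 of the 39 tested histone genes were called higher and 9 lower at day 5, and 22 did not pass. Together that is 43.6% of them, against 52.3% of all tested genes (24.9% higher and 27.4% lower). In N2, 4 were called higher and 10 lower and 25 did not pass, 35.9% against 52.1% of all tested genes (23.8% higher and 28.2% lower). Neither count is an excess over the table as a whole. With total counts in place of TMM scaling, 6 histone genes were called higher and 12 lower in mutants, where all genes split into 3109 higher and 5144 lower (4175 and 4588 with TMM). In N2 that scaling gave 3 higher and 11 lower among histone genes and 2929 and 5307 among all genes (3998 and 4731 with TMM). Without the 3 day 0 libraries lowest in sperm markers (mutant replicates 1 and 3 and N2 replicate 1), 6 of 38 tested were called higher and 4 lower in mutants, beside 46.0% of all genes called, and 3 higher and 9 lower in N2, beside 52.7%. The lone day 0 library that this leaves in mutants is assumed to vary like the other groups. The median log2 change of the tested histone genes was 0.03 in mutants, beside 0.01 for all genes, and -0.37 in N2, beside -0.09. By structure, 5 of the 8 genes with introns were called higher and 1 lower in mutants, and 4 higher and 1 lower in N2. Of the 31 tested single-exon genes 3 were called higher and 8 lower in mutants, and 0 higher and 9 lower in N2.

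His-72 encodes H3.3, the H3 form that is put into chromatin outside S phase, and his-74 an H3.3-like protein. His-72 had 224, 253 and 250 CPM at day 5 and 144, 137 and 131 CPM at day 0 in mir-71 mutants, and 223, 205 and 218 CPM at day 5 and 146, 143 and 161 CPM at day 0 in N2. His-74 had 139, 177 and 162 CPM at day 5 and 85.5, 99.2 and 88.6 CPM at day 0 in mutants, and 171, 160 and 194 CPM at day 5 and 100, 104 and 114 CPM at day 0 in N2. Every day 5 library lay above every day 0 library of its genotype for both genes. His-72 rose by a log2 of 0.82 ± 0.10 in mutants (adjusted p = 3.67e-05) and 0.52 ± 0.10 in N2 (adjusted p = 0.001). His-74 rose by 0.81 ± 0.12 in mutants (adjusted p = 0.00016) and 0.72 ± 0.12 in N2 (adjusted p = 0.000368).

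His-71, another H3.3 gene, went the other way. It had 9.81, 9.26 and 10.3 CPM at day 5 and 15.1, 25.8 and 17.7 CPM at day 0 in mutants, and 9.34, 10.1 and 9.90 CPM at day 5 and 17.5, 26.1 and 22.3 CPM at day 0 in N2. The day 5 libraries were close to each other and all lay below the day 0 libraries. The log2 change was -1.0 ± 0.21 in mutants (adjusted p = 0.00179) and -1.17 ± 0.22 in N2 (adjusted p = 0.000665). The H3.3 genes his-71 and his-72 thus changed in opposite directions in both genotypes.

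His-70, a single-exon H3.3-like gene (chromosome III, 4059715 to 4060119), had the largest fall with age of the tested histone genes. It had 0.275, 0.128 and 0.0733 CPM at day 5 and 3.65, 12.9 and 4.65 CPM at day 0 in mutants. In N2 it had 0.127, 0.234 and 0.157 CPM at day 5 and 3.67, 11.9 and 7.93 CPM at day 0. The log2 change was -5.45 ± 0.67 in mutants (adjusted p = 3.31e-05) and -5.39 ± 0.69 in N2 (adjusted p = 4.79e-05), a level 43.7 and 42.0 times lower at day 5. The day 5 libraries held 24 counts in mutants and 18 in N2. Mutant replicate 3 and N2 replicates 1 and 3 were at the floor of 3 counts, so the size of the fall is uncertain. The 21 sperm markers, all detected, moved with it: 21 of 21 fell with age in both genotypes. Their summed level was 14.3 to 30.8 CPM at day 5 and 966 to 2590 CPM at day 0 in mutants, and 8.01 to 14.3 CPM at day 5 and 1130 to 2800 CPM at day 0 in N2. Replicate 2 was the highest day 0 library of both genotypes for that sum and for his-70, his-71 and his-24. In bulk RNA, fewer sperm and less RNA per cell cannot be told apart, and the part of the sperm in these levels was not tested. N2 replicate 1 and mutant replicates 1 and 3, the day 0 libraries lowest in sperm markers, were also the lowest day 0 libraries for his-70. Leaving them out can therefore only enlarge the fall of his-70 and says nothing about the part of the sperm.

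His-69, the neighbour of his-70 and also H3.3-like, was near the floor. It had 0.0847, 0.273 and 0.244 CPM at day 5 and 0.243, 0.210 and 0.179 CPM at day 0 in mutants, where the ages overlapped. In N2 it had 0.212, 0.254 and 0.262 CPM at day 5 and 0.129, 0.0973 and 0.0898 CPM at day 0, without overlap. Its log2 change was -0.08 ± 0.42 in mutants (adjusted p = 0.886) and 1.18 ± 0.48 in N2 (adjusted p = 0.0557), and neither passed.

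His-24 encodes the linker histone H1.1. It had 21.3, 11.9 and 19.5 CPM at day 5 and 3.46, 6.13 and 2.68 CPM at day 0 in mutants, and 12.0, 9.43 and 10.2 CPM at day 5 and 3.54, 8.37 and 2.99 CPM at day 0 in N2. All day 5 libraries lay above the day 0 libraries of the same genotype, with N2 replicate 2 at day 0 the nearest to them. The log2 rise was 2.09 ± 0.41 in mutants (adjusted p = 0.00108) and 1.07 ± 0.40 in N2 (adjusted p = 0.0405). The N2 call did not hold with upper-quartile scaling, with total-count scaling, or without any 1 of 6 libraries (largest adjusted p 0.138). Without the 3 day 0 libraries lowest in sperm markers the N2 log2 rise was 0.86. The mutant call held in every other alternative run. Of the 8 linker histone genes named hil-, 2 were called higher and 3 lower with age in mutants, and none higher and 2 lower in N2. The gene with the highest CPM among them, hil-4, had a log2 change of 0.42 ± 0.16 in mutants (adjusted p = 0.0427) and 0.30 ± 0.16 in N2 (adjusted p = 0.13), and hil-5 fell in both, with log2 changes of -0.54 in mutants (adjusted p = 0.0163) and -0.72 in N2 (adjusted p = 0.00331). Hil-3 rose by a log2 of 1.03 in mutants (adjusted p = 0.00989), hil-1 changed by -0.87 in mutants (adjusted p = 0.00424), and hil-8 changed by -1.11 in mutants (adjusted p = 0.0389) and -1.6 in N2 (adjusted p = 0.00953). The levels of hil-2, hil-6 and hil-7 did not pass with age in either genotype.

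**Figure D3:**
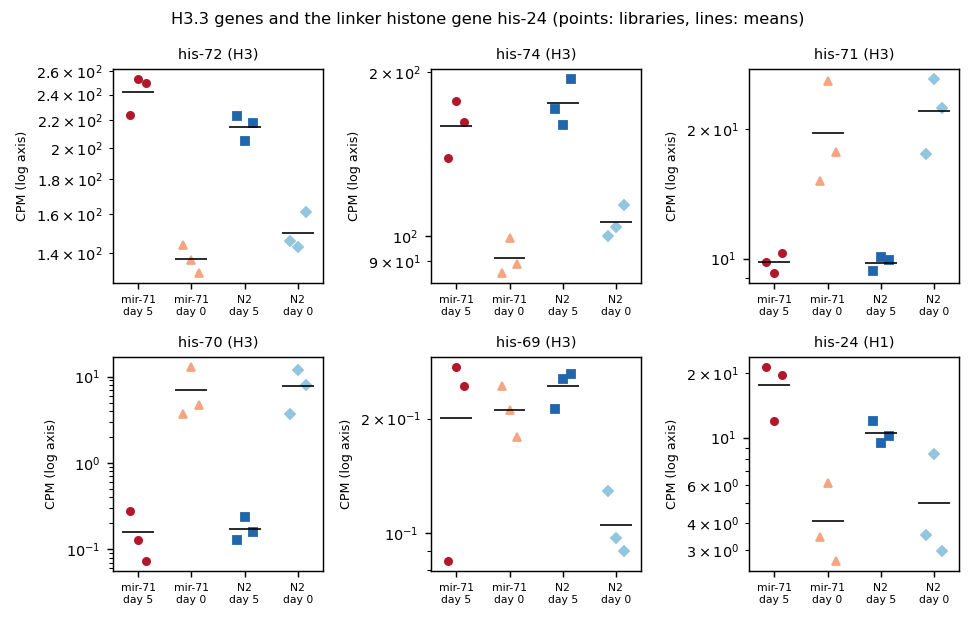
CPM per library (points, log axes) and group mean (lines) of the 5 H3.3 or H3.3-like genes and of his-24. His-72 and his-74 are higher and his-71 and his-70 lower at day 5 in both genotypes, and only N2 shows separate ages for his-69.

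The trio on chromosome V supplies 1 abundant gene to each of 3 other core classes. His-35 (H2A) had 122, 120 and 124 CPM at day 5 and 71.6, 60.9 and 76.9 CPM at day 0 in mutants, and 141, 128 and 116 CPM at day 5 and 82.9, 83.1 and 73.1 CPM at day 0 in N2. The ages did not overlap, and his-35 rose by a log2 of 0.80 ± 0.12 in mutants (adjusted p = 0.00012) and 0.69 ± 0.12 in N2 (adjusted p = 0.000366). His-41 (H2B) had 49.8, 46.7 and 45.2 CPM at day 5 and 31.2, 33.8 and 27.2 CPM at day 0 in mutants, and 38.7, 46.2 and 33.6 CPM at day 5 and 37.5, 44.4 and 33.1 CPM at day 0 in N2. Only the mutant ages were separate: the log2 change was 0.62 ± 0.15 in mutants (adjusted p = 0.00482) and 0.04 ± 0.15 in N2 (adjusted p = 0.827). The difference between these changes did not pass its own test (log2 0.57 ± 0.22, adjusted p = 0.269), and the mutant call was lost without mutant replicate 3 at day 0 (adjusted p = 0.05), with total counts (adjusted p = 0.0547) and without the 3 day 0 libraries lowest in sperm markers (adjusted p = 0.137). His-37 (H4) had 74.9, 78.4 and 77.5 CPM at day 5 and 106, 67.2 and 61.8 CPM at day 0 in mutants, and 51.9, 64 and 45.5 CPM at day 5 and 62.4, 70.8 and 52.1 CPM at day 0 in N2. The ages overlapped in both, and neither change passed (log2 -0.02 ± 0.20 in mutants, adjusted p = 0.927, and -0.20 ± 0.20 in N2, adjusted p = 0.427). Exons of his-37 overlap those of nstp-10 on the other strand and exons of his-41 those of C50F4.6 on the same strand, and both neighbours were detected, so these counts are uncertain where the genes overlap. His-57, the remaining gene with introns (H2A), was low, at 0.312 to 0.892 CPM in all libraries. Its exons overlap those of klp-12 on the other strand, which had 82.1 to 121 CPM.

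On chromosome IV (7485834 to 7488659), his-59 (H3), his-60 (H4), his-61 (H2A) and his-62 (H2B) form a complete core set. His-59 had 1.08, 1.75 and 1.71 CPM at day 5 and 5.08, 4.84 and 7.65 CPM at day 0 in mutants, and 2.17, 1.84 and 3.82 CPM at day 5 and 6.83, 5.33 and 6.22 CPM at day 0 in N2. His-61 had 1.67, 1.49 and 2.54 CPM at day 5 and 4.19, 3.66 and 4.74 CPM at day 0 in mutants, and 1.95, 1.62 and 2.83 CPM at day 5 and 4.58, 4.28 and 4.52 CPM at day 0 in N2. Neither gene's ages overlapped in either genotype. The log2 change of his-59 was -1.94 ± 0.33 in mutants (adjusted p = 0.000329) and -1.25 ± 0.32 in N2 (adjusted p = 0.00594). That of his-61 was -1.14 ± 0.28 in mutants (adjusted p = 0.0041) and -1.08 ± 0.28 in N2 (adjusted p = 0.00627).

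His-60 of the same set had 3.49, 3.4 and 4.13 CPM at day 5 and 7.57, 5.08 and 6.66 CPM at day 0 in mutants, and 4.25, 4.12 and 5.29 CPM at day 5 and 6.21, 5.67 and 5.09 CPM at day 0 in N2. The ages were separate in mutants only, with a log2 change of -0.81 ± 0.22 in mutants (adjusted p = 0.00823) and -0.32 ± 0.22 in N2 (adjusted p = 0.25). The H2B gene his-62 averaged 4.11 ± 0.274 CPM at day 5 and 4.03 ± 0.539 CPM at day 0 in mutants, and 3.72 ± 0.3 CPM at day 5 and 3.90 ± 0.610 CPM at day 0 in N2 (SD, n = 3 each). Its ages overlapped and its log2 change was 0.03 in mutants and -0.07 in N2, neither past the test.

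Summed by class, the single-exon genes differed as well. Single-exon H3 genes summed to 7.30 ± 0.726 CPM at day 5 and 18.7 ± 3.44 CPM at day 0 in mutants, and to 6.66 ± 1.80 CPM at day 5 and 18.7 ± 2.81 CPM at day 0 in N2 (SD, n = 3 each). Of those day 0 means, his-70 made up 7.08 CPM in mutants and 7.83 CPM in N2. Single-exon H4 genes summed to 9.65 ± 0.471 CPM at day 5 and 15 ± 3.04 CPM at day 0 in mutants, and to 9.26 ± 1.57 CPM at day 5 and 12.6 ± 1.37 CPM at day 0 in N2 (SD, n = 3 each). Single-exon H2B genes lay close together, at 9.59 ± 1.62 CPM at day 5 and 8.64 ± 1.21 CPM at day 0 in mutants and 7.09 ± 0.419 CPM at day 5 and 7.59 ± 0.912 CPM at day 0 in N2 (SD, n = 3 each). Only 1 of the 6 tested single-exon H2B genes, his-11, was called with age in either genotype.

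The chromosome V cluster his-5 to his-8 (with his-39, 8532715 to 8536716) summed to 0.545 to 0.684 CPM at day 5 and 0.809 to 2.28 CPM at day 0 in mutants, and to 0.209 to 0.351 CPM at day 5 and 0.701 to 1.41 CPM at day 0 in N2. His-6 (H3) had 0.148, 0.209 and 0.171 CPM at day 5 and 0.374, 0.315 and 0.447 CPM at day 0 in mutants, and 0.0849, 0.0976 and 0.0524 CPM at day 5 and 0.466, 0.234 and 0.389 CPM at day 0 in N2. Its log2 change was -1.05 ± 0.37 in mutants (adjusted p = 0.0304) and -2.07 ± 0.45 in N2 (adjusted p = 0.00196), with no overlap of ages. The N2 day 5 libraries held 8 counts of his-6 in all, with replicates 1 and 3 below the floor. The mutant call was lost without any 1 of 4 mutant libraries (largest adjusted p 0.0975), and also with DESeq2, without the filter on low counts and with a replicate block on the mutant libraries.

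His-5 (H4) of that cluster had 0.0212, 0.0963 and 0.0733 CPM at day 5 and 0.318, 0.135 and 0.760 CPM at day 0 in mutants (log2 -2.43 ± 0.72, adjusted p = 0.0127). In N2 its 3 day 5 libraries held 1 count in all, against 26 at day 0, a level 19.8 times lower with an exact 95% interval of 3.25 to 811 times for counting error only (adjusted p = 0.00905 in the fit). The mutant call was lost without mutant day 5 replicate 1 or day 0 replicate 3 (largest adjusted p 0.0515). His-7 (H2A) had 0.0849, 0.0781 and 0 CPM at day 5 and 0.284, 0.156 and 0.299 CPM at day 0 in N2, a log2 change of -1.92 ± 0.64 (adjusted p = 0.0232) whose call was lost without any 1 of 3 N2 libraries (largest adjusted p 0.0645). Its N2 day 5 libraries held 6 counts in all, with replicates 1 and 3 below the floor. In mutants it had 0.233, 0.112 and 0.122 CPM at day 5 and 0.262, 0.180 and 0.358 CPM at day 0, which overlapped (log2 -0.70 ± 0.51, adjusted p = 0.27).

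His-3 and his-67, outside those clusters, were called lower with age in mutants and missed the threshold in N2. His-3 (H2A, chromosome V, 16040808 to 16041191) had 0.381, 0.369 and 0.440 CPM at day 5 and 0.766, 0.794 and 1.07 CPM at day 0 in mutants, and 0.340, 0.234 and 0.785 CPM at day 5 and 0.802, 0.954 and 0.748 CPM at day 0 in N2. His-67 (H4) had 1.52, 1.83 and 1.76 CPM at day 5 and 4.51, 2.28 and 3.62 CPM at day 0 in mutants, and 2.29, 1.44 and 3.25 CPM at day 5 and 4.19, 2.30 and 3.20 CPM at day 0 in N2. For both genes the ages overlapped in N2 and not in mutants. His-3 changed by a log2 of -1.13 ± 0.38 in mutants (adjusted p = 0.026) and -0.98 ± 0.40 in N2 (adjusted p = 0.0583), and his-67 by -1.02 ± 0.35 in mutants (adjusted p = 0.0275) and -0.49 ± 0.35 in N2 (adjusted p = 0.265). The difference between genotypes did not pass for either (adjusted p = 0.932 and 0.67), and each mutant call was lost without any 1 of 4 mutant libraries (largest adjusted p 0.0794 for his-3 and 0.0841 for his-67). His-73, a gene of 141 exon bases with no class, had 0.614, 1.11 and 0.684 CPM at day 5 and 0.617, 0.599 and 0.447 CPM at day 0 in mutants, and 0.637, 0.469 and 0.576 CPM at day 5 and 0.647, 0.662 and 0.569 CPM at day 0 in N2. It passed in no comparison. Exons of his-73 overlap those of W09H1.4 on the same strand, which had 0.419 to 1.58 CPM, so its counts are uncertain. His-68 (H2A), the neighbour of his-67 and the most abundant single-exon gene, had 12.6, 17.4 and 16 CPM at day 5 and 22.2, 16.1 and 22.5 CPM at day 0 in mutants, and 18.9, 11.7 and 19.7 CPM at day 5 and 24.6, 18.3 and 22 CPM at day 0 in N2. The ages overlapped in both genotypes, and the log2 change was -0.4 ± 0.23 in mutants (adjusted p = 0.161) and -0.37 ± 0.23 in N2 (adjusted p = 0.196). The H4 gene his-31 came nearest to the threshold among the remaining genes, at a log2 change of -1.66 in mutants (adjusted p = 0.0578) and -1.47 in N2 (adjusted p = 0.139).

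**Figure D4:**
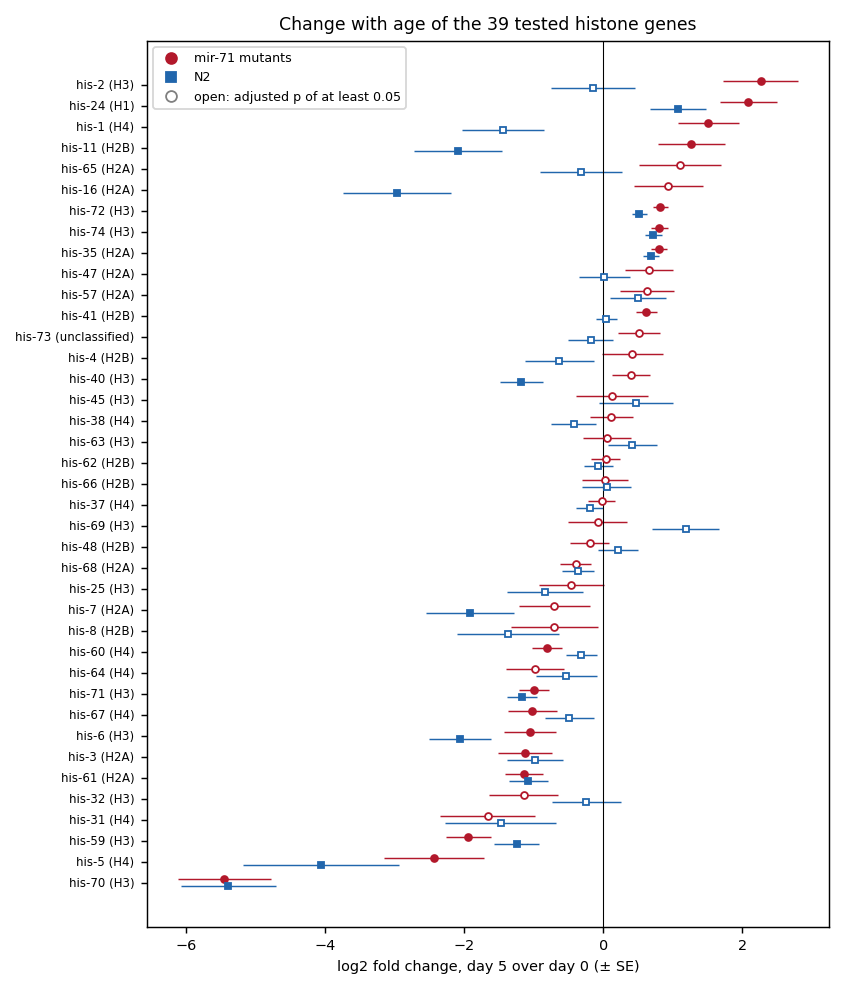
Log2 fold change of each tested histone gene at day 5 over day 0 (± SE from the fit), mir-71 mutants in red and N2 in blue, with open symbols for genes that did not pass. His-70 lies at the bottom in both genotypes (-5.45 and -5.39), and his-1, his-2, his-11 and his-16 show the widest distance between genotypes.

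The genes that handle histone RNA and histones were examined from lists. Of the 4 other core variant genes, htz-1 (H2A.Z) rose by a log2 of 0.98 in mutants and 0.99 in N2 (adjusted p = 5.33e-05 and 5.34e-05), and the centromeric H3 genes hcp-3 (0.49 and 0.85) and cpar-1 (0.61 and 0.86) also rose in both. Htas-1, a sperm H2A variant, had log2 changes of -6.37 in mutants and -7.55 in N2 (adjusted p = 1.73e-06 and 1.52e-06). Cdl-1, which encodes the protein that binds the histone stem-loop, averaged 361 ± 10.8 CPM at day 5 and 191 ± 23.5 CPM at day 0 in mutants and 397 ± 31.6 CPM at day 5 and 205 ± 31.8 CPM at day 0 in N2 (SD, n = 3 each). It rose by a log2 of 0.92 in mutants (adjusted p = 0.000145) and 0.95 in N2 (adjusted p = 0.000114). Of the 10 matched histone 3′ processing genes, 2 were called higher and 5 lower in mutants and 2 higher and 4 lower in N2. Those lower in both include csr-1, an Argonaute that takes part in histone mRNA maturation in the worm (log2 -1.09 and -0.68), the helicase drh-3 (-0.81 and -0.73) and the cleavage factor cpsf-2 (-0.82 and -0.66).

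Histone chaperones, which carry histones to DNA, were called higher in 9 of 14 genes in mutants and 10 of 14 in N2 and lower in none, led by asfl-1 (log2 1.06 and 1.25) and the nuclear H3-H4 carriers nasp-1 (0.87 and 1.09) and nasp-2 (1.02 and 1.14). Genes of S phase, the period in which the single-exon histone genes are normally read, were called higher in 16 of 21 genes in mutants and 20 of 21 in N2 and lower in none. Among them tyms-1, which encodes thymidylate synthase, the enzyme that the drug blocks, rose by a log2 of 2.00 and 2.43, and the replication clamp gene pcn-1 by 1.27 and 1.24. Of 9 poly(A) polymerase and cytoplasmic polyadenylation genes, 4 were called higher and 2 lower in mutants and 4 higher and 1 lower in N2. The background for all of these lists is the share of all tested genes called in the same direction. It was 24.9% higher and 27.4% lower in mutants, and 23.8% higher and 28.2% lower in N2. The lists share their libraries with the histone genes.

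Markers of other tissues moved with age beside the histone genes, and their part in the histone results was not tested. Among all tested genes, 24.9% were called higher and 27.4% lower with age in mutants, and 23.8% higher and 28.2% lower in N2. Of 16 oocyte markers, 16 rose in both genotypes, to a sum of 14500 to 16700 CPM at day 5 against 5410 to 6910 CPM at day 0 in mutants, and 14800 to 18500 CPM against 5490 to 7980 CPM in N2. Of 9 body wall muscle markers, 9 fell in both, to 3350 to 3800 CPM at day 5 against 9220 to 19300 CPM at day 0 in mutants, and 1910 to 2290 CPM against 12700 to 21400 CPM in N2. Epidermis markers fell in 5 of 6 genes in mutants and 6 of 6 in N2, and intestine markers rose in 5 of 8 in mutants and 7 of 8 in N2. Germline mitosis and meiosis markers rose in 3 and fell in 7 of 18 genes in mutants and rose in 5 and fell in 4 in N2. The 16 early embryo markers, 6 of them tested, summed to 3.88 to 4.51 CPM at day 5 and 2.10 to 3.07 CPM at day 0 in mutants and to 4.40 to 6.44 CPM at day 5 and 2.08 to 2.61 CPM at day 0 in N2, and neuron markers rose in 2 and fell in 2 of 10 genes in mutants and rose in 1 and fell in 4 in N2. No marker on these lists was at 0 over all libraries.

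The comparison of mir-71 mutants with N2 asks which histone transcripts differ with the mutation at each age. At day 0 none of the 39 tested histone genes was called by edgeR, and none had an unadjusted p under 0.05 (smallest adjusted p 0.906). DESeq2 called none either. Over all comparisons, DESeq2 gave no adjusted p for 23 pairs of histone gene and comparison, which are counted here as not called. Among all tested genes edgeR called 0.131% at day 0 (0.0716% higher and 0.0597% lower). The histone genes summed to 501 ± 23.5 CPM in mutants and 531 ± 12.5 CPM in N2 at day 0 (SD, n = 3 each).

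At day 5, 4 histone genes were called higher in mir-71 mutants than in N2 and none lower. That is 10.3% of the 39, against 10.7% of all tested genes in either direction (7.63% higher and 3.1% lower), so the share called is that of the table as a whole. With RLE scaling, the calls among all genes split into 1113 higher and 825 lower, against 1279 and 519 with TMM and 1541 and 251 with total counts, and the 4 histone calls were made with all 3. An unadjusted p under 0.05 was found for 10 of the 39. The median log2 difference was 0.17 for the histone genes, beside 0.05 for all genes. The 4 genes are single-exon genes of low level, 1 of each core class: his-11 (H2B), his-16 (H2A), his-40 (H3) and his-1 (H4).

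His-11 (chromosome II, 13821809 to 13822177) had 1.48, 1.52 and 3.45 CPM in mutants and 0.17, 0.117 and 0.0524 CPM in N2 at day 5. His-16 (chromosome II, 13817760 to 13818143), the end gene of the same cluster, had 0.847, 0.690 and 1.88 CPM in mutants and 0.0425, 0.0586 and 0 CPM in N2 at day 5. For both, replicate 3 was the highest mutant library, and every mutant library stood above every N2 library. The log2 difference was 4.17 ± 0.61 for his-11 (adjusted p = 0.00159) and 4.68 ± 0.73 for his-16 (adjusted p = 0.00228), or 18.0-fold for his-11. For his-16 no N2 library held more than 3 counts, so its N2 level cannot be told from 0, and the ratio of summed counts was 25.0 with an exact 95% interval of 9.56 to 92.7 for counting error only. Over the alternatives its log2 difference ranged from 2.36 to 5.41. The N2 values rest on few reads, 11 counts for his-11 and 4 for his-16 over 3 libraries, against 306 and 160 in the mutant libraries. At day 0 the genotypes overlapped for his-11, at 1.20, 0.509 and 0.984 CPM in mutants and 0.284, 0.818 and 0.389 CPM in N2, and also for his-16, at 0.598, 0.45 and 0.760 CPM in mutants and 0.284, 0.565 and 0.15 CPM in N2. The gene of the antisense transcript annotated over his-16 had 0 counts in every library. His-11 shares its symbol with his-15 and his-44, which were at 0, so its count may hold reads of near-identical copies.

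His-40 (chromosome X, 7310110 to 7310520) had 2.67, 1.64 and 2.74 CPM in mutants and 0.509, 0.586 and 0.524 CPM in N2 at day 5. It was 4.29 times higher in mutants (log2 2.10 ± 0.31, adjusted p = 0.0016). At day 0 it had 1.38, 1.99 and 1.97 CPM in mutants and 1.06, 1.5 and 1.14 CPM in N2, which overlapped. His-38 (H4), its only neighbour in the cluster, had 3.71, 2.57 and 2.32 CPM in mutants and 1.32, 1.72 and 1.20 CPM in N2 at day 5. The genotypes did not overlap, and the difference did not pass (log2 1.00 ± 0.32, adjusted p = 0.0617).

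His-1 (chromosome V, 16042520 to 16042831) had 0.762, 0.321 and 0.342 CPM in mutants and 0.0425, 0.0781 and 0.0524 CPM in N2 at day 5, a log2 difference of 2.87 ± 0.53 (adjusted p = 0.0061). The N2 libraries held 6 counts in all, against 70 in mutants. Its neighbour his-2 (H3) had 0.657, 0.433 and 0.538 CPM in mutants and 0.212, 0.137 and 0.105 CPM in N2 at day 5, with no overlap, and missed the threshold (log2 1.82 ± 0.55, adjusted p = 0.0527), which it passed with upper-quartile factors (adjusted p = 0.0483) and with only the day 5 groups fitted (adjusted p = 0.0127). The other 2 genes of that core set did not pass, his-3 (H2A) at a log2 of -0.10 and his-4 (H2B) at 1.04 (adjusted p = 0.907 and 0.183). All 4 calls at day 5 were kept when each library was left out in turn, with a largest adjusted p of 0.0338. No gene with introns was called between genotypes at day 5 in the fit over all libraries. His-37 came nearest, with separate values of 74.9 to 78.4 CPM in mutants and 45.5 to 64 CPM in N2 (log2 0.51 ± 0.20, adjusted p = 0.114). With only the day 5 groups fitted, his-37 (adjusted p = 0.0284) and his-24 (adjusted p = 0.044) were called higher in mutants.

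**Figure D5:**
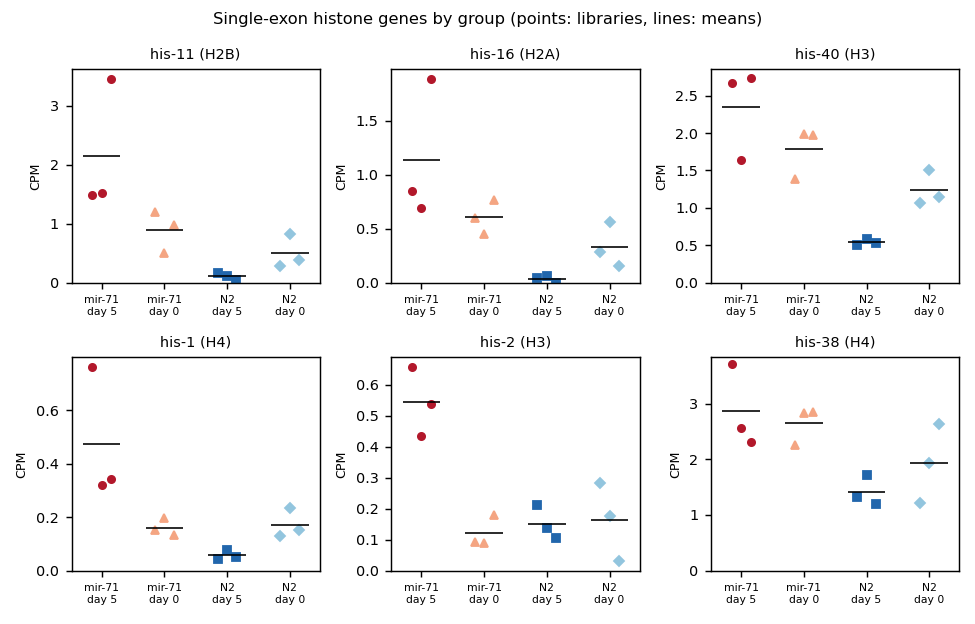
CPM per library (points) and group mean (lines) of the 4 single-exon histone genes called higher in mir-71 mutants than in N2 at day 5, and of his-2 and his-38, which did not pass. In all 6 panels the mutant day 5 points lie above the N2 day 5 points.

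The changes of these genes with age can be set side by side for the genotypes. His-1 had 0.762, 0.321 and 0.342 CPM at day 5 and 0.15, 0.195 and 0.134 CPM at day 0 in mutants, and 0.0425, 0.0781 and 0.0524 CPM at day 5 and 0.129, 0.234 and 0.15 CPM at day 0 in N2. It was called higher with age in mutants (log2 1.51 ± 0.43, adjusted p = 0.011) and not in N2 (log2 -1.44 ± 0.59, adjusted p = 0.0552), although no libraries overlapped in either. His-2 had 0.0935, 0.0899 and 0.179 CPM in mutants and 0.284, 0.175 and 0.0299 CPM in N2 at day 0, and was called higher with age in mutants (log2 2.26 ± 0.54, adjusted p = 0.0038) and not in N2 (log2 -0.15 ± 0.60, adjusted p = 0.856). The call of his-1 in mutants was lost without mutant replicate 1 at day 5 (adjusted p = 0.0709), with DESeq2 (adjusted p = 0.0579), with a replicate block on the mutant libraries (adjusted p = 0.0525) and without the 3 day 0 libraries lowest in sperm markers (adjusted p = 0.138).

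With the values above, his-11 was called higher with age in mutants (log2 1.27 ± 0.48, adjusted p = 0.0405) and lower in N2 (log2 -2.09 ± 0.63, adjusted p = 0.0146). The mutant call was lost with upper-quartile, total-count and TMMwsp scaling, with DESeq2, and with only the mutant libraries fitted, with or without a replicate block (adjusted p = 0.0513 to 0.0773). It was also lost without any 1 of 4 libraries (largest adjusted p 0.219), and the N2 call without any 1 of 3 (largest adjusted p 0.0812). His-16 changed by a log2 of 0.94 ± 0.50 in mutants (adjusted p = 0.136), where its ages overlapped, and by -2.97 ± 0.78 in N2 (adjusted p = 0.0066). His-40 changed by 0.40 ± 0.28 in mutants (adjusted p = 0.254), with overlapping ages, and by -1.18 ± 0.31 in N2 (adjusted p = 0.00653). The test of the difference between the 2 changes called none of the 39 histone genes, against 0.555% of all tested genes (0.453% higher and 0.101% lower). The smallest adjusted p was 0.092, for his-11 (log2 3.36 ± 0.79), followed by his-16 (3.91 ± 0.93, adjusted p = 0.0947), his-1 (2.95 ± 0.73, adjusted p = 0.105) and his-40 (1.58 ± 0.42, adjusted p = 0.125). An unadjusted p under 0.05 was found for 6 of the 39. DESeq2 called 2 genes, his-11 and his-16, beside 3.25% of all genes, as did edgeR without the filter on low counts, beside 0.919%.

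Other lists moved between genotypes at day 5 beside these calls, and their part in them was not tested. Among all tested genes, 7.63% were called higher and 3.1% lower in mutants at day 5. Body wall muscle markers were called higher in mutants in 3 of 9 genes, with sums of 3350 to 3800 CPM in mutants and 1910 to 2290 CPM in N2. Epidermis markers were called higher in 3 of 6 genes, with sums of 1860 to 4620 CPM in mutants and 740 to 938 CPM in N2, and neuron markers in 3 of 10 genes, with 530 to 604 CPM in mutants and 400 to 485 CPM in N2. Germline mitosis and meiosis markers were called lower in 4 of 18 genes, with sums of 2100 to 2720 CPM in mutants and 2730 to 3870 CPM in N2. Intestine markers were called lower in 3 of 8 genes, with sums of 73400 to 167000 CPM in mutants and 118000 to 178000 CPM in N2. No sperm or oocyte marker was called. Of the 3′ processing genes, csr-1 (log2 -0.61, adjusted p = 0.0394), ncbp-1 (-0.41, adjusted p = 0.044) and ego-1 (-0.55, adjusted p = 0.0468) were lower in mutants, as were the S phase genes pri-1 (-0.48, adjusted p = 0.0167) and ctf-4 (-0.47, adjusted p = 0.0458) and the linker histone gene hil-1 (-1.10, adjusted p = 0.008). Of the polyadenylation genes, cpb-3 was lower in mutants (-0.78, adjusted p = 0.00445). None of the 14 chaperone genes was called.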

How the data were processed

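Poly(A) RNA of 12 whole-worm samples was analysed in 4 groups of 3. The authors deposited raw read counts per gene, which were tested, and log2 values of the same libraries, named rlog in that table, which served 1 alternative. Per the submitters' processing notes, STAR 2.4.0h, DESeq2 and the build WBcel235 were used. Which program counted the reads, with which annotation, strand and rule for multiple matches, was not given in the sources.

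In R 4.3.3, edgeR 4.0.16 kept 16764 genes (filterByExpr), scaled them by TMM and fitted 4 group means to all libraries (quasi-likelihood F-test, 8 residual degrees of freedom). Each p was adjusted by Benjamini-Hochberg over all tested genes of its comparison, with a threshold of 0.05. The SE of a log2 fold change is its size over the square root of F. The alternatives (other scalings and filters, other tools, only the groups compared, a replicate block, each library left out) also used limma 3.58.1 and DESeq2 1.42.0. The fit was tested on simulated data with 200 changed genes: with age in N2 47% of genes shifted by log2 1 and 88% shifted by log2 2 were recovered (8 of 143 calls false). For mutants minus N2 in the change with age, the shares were 23% and 59% (7 of 89 calls false). The changed genes were drawn at random from all tested genes and no other gene was shifted. These shares therefore do not describe histone genes of low level.

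Symbols were assigned by sequence name between the WBcel235 annotation and RefSeq, because the names table gives 14 histone symbols to several IDs. All 72 members matched. The members and lists were chosen with earlier results of these data known. Named with values in every library were members past the threshold in any comparison, the most abundant of each class, and his-24, his-35 and his-69 to his-74. From the lists, all variant and linker genes, cdl-1 and up to 3 genes with the smallest p per comparison could be named. The list gene cde-1 had no ID and is not reported. His-4, his-31, his-38, his-57, his-62 and his-68 are also given, chosen after their values were seen.

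Scatter between replicates exceeded counting error (chi-square per gene 22.8 to 308), so no 2 libraries were merged. Replicates with the same number deviated together between genotypes at day 0 (correlations 0.758, 0.664 and 0.285), and not in all pairs of the other comparisons. Intervals and floors cover counting error only.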

Additional observations from a re-analysis of the deposited data

Results flagged for a closer look

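His-11 and his-1 drew attention because every mir-71 mutant library was higher at day 5 than at day 0 while every N2 library was lower. The difference between the changes with age (mutants minus N2) was a log2 of 3.36 ± 0.79 for his-11 and 2.95 ± 0.73 for his-1. It did not pass edgeR's test of the difference (adjusted p = 0.092 and 0.105). Both genes are of low count, with 11 counts for his-11 and 6 for his-1 over the 3 N2 libraries at day 5.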

How the results depend on the processing

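Over 35 calls in 20 histone genes, none changed sign under any alternative, 25 were kept without each library in turn and 24 under every alternative that tested them. Of those 24, 18 were tested under all 24 alternatives and 6 were not, mostly because a filter removed the gene. The 10 genes called lower with age in N2 became 6 with a filter of 1 CPM in 3 libraries, with only the groups compared, and with those groups and a replicate block. In those fits his-5, his-6, his-7 and his-16 had too few counts to be tested. The 9 called lower in mutants became 5 with that block, 4 without the 3 day 0 libraries lowest in sperm genes (chosen after seeing the data), where his-3, his-5, his-6, his-60 and his-67 no longer passed, and 5 to 12 without 1 library (5 without mutant day 5 replicate 1). The 4 called higher in mutants at day 5 became 2 with that filter, which removed the others, 8 with only the day 5 groups (adding his-2, his-24, his-37 and his-38; 18.6% of all genes called), 8 with a replicate block there (20.9%), 5 with a replicate block over all 12 libraries (14.3%), and 4 to 6 without 1 library. With the day 0 pairing, the replicate block still called none at day 0. The difference between changes called 2 higher without a filter and with DESeq2. Leaving out 1 library gave 3 to 5 higher and 9 to 11 lower with age in N2, and 6 to 8 higher in mutants.

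Upper-quartile factors moved the median of all genes with age in N2 to -0.22 and total counts alone to -0.24, against -0.09 with TMM. Total counts moved it to -0.15 with age in mutants (0.01 with TMM). The log2 ratio of class sums with age in N2 moved from 0.46 to 0.33 (upper-quartile) and 0.30 (total counts) for H2A, and from 0.45 to 0.32 and 0.30 for H3. Total counts gave 0.39 (H2A, 0.55 with TMM), 0.37 (H2B, 0.53 with TMM) and 0.50 (H3, 0.65 with TMM) with age in mutants, -0.0495 for H3 at day 0 (-0.15 with TMM), and 0.033 for H2A at day 5, where TMM gave -0.07. Without the 3 day 0 libraries, age in mutants gave 1.52 (H1, 2.10 with all), 0.78 (H2A) and 0.45 (H2B), and H2A at day 0 gave -0.34 (-0.16 with all). H1 with age in N2 gave 0.82 to 1.69 without 1 library (1.08 with all), the highest without N2 day 0 replicate 2. The cause was not tested. Reads of 28 copies at 0 and levels under 0.157 CPM limit what these depths can show.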
